A study of Mus musculus with 20 samples.

Results

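In mouse embryonic stem cells, 861 of 20371 RAD21 peaks lay at a promoter, shared their position with CTCF, and were no longer called after CTCF was degraded. They were chosen from peak lists alone. A member was a RAD21 peak of untreated cells that overlapped no RAD21 peak of auxin-treated cells by 1 bp, overlapped a CTCF peak of untreated cells, and had its summit within 1 kb of an annotated transcript start. They made up 6.91% of the 12452 RAD21 peaks lost on CTCF degradation and 48.7% of the 1768 RAD21 peaks that lay at a promoter with CTCF. Because the RAD21 lists of WT and ΔCTCF cells and the CTCF list of WT cells chose the members, values from these 3 lists are given as a description. Of all RAD21 WT peaks, 38.9% overlapped a RAD21 ΔCTCF peak and 86.0% a CTCF WT peak.

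The cells were E14 embryonic stem cells grown with LIF and 2i, and all of them carried CTCF fused to an auxin-inducible degron. Untreated degron cells are called WT. Cells given auxin for 2 days are ΔCTCF. A Maz knockout line made in the same degron background, titled B2, gave ΔMAZ cells without auxin and ΔCTCF/ΔMAZ cells with auxin for 2 days, so both ΔMAZ groups rest on 1 knockout line. RAD21, CTCF and MAZ were each mapped by ChIP-seq in the 4 groups, which gave 12 peak lists, 1 per antibody and group. No group had a second list here, so no difference below carries a replicate check or a p-value. The labels name a second sample for each CTCF and MAZ group, which was not analysed, and 1 sample for each RAD21 group. Intervals are 95% Wilson intervals for a share and Newcombe intervals for a difference of shares. They cover counting error over peaks of these libraries only. Each difference is the share of the members minus that of the other class.

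RAD21 is the kleisin subunit that closes the cohesin ring. Cohesin extrudes chromatin into loops and is stopped by CTCF in an orientation-dependent way, so that most strong cohesin peaks of interphase cells coincide with CTCF. CTCF recognises an asymmetric DNA motif through its zinc fingers, and MAZ is a zinc finger protein that binds G-rich sequence, often at promoters.

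The lists differed in size and depth. The RAD21 list held 20371 peaks for WT cells, 17912 after auxin, 20872 for the knockout line and 6400 for the knockout line after auxin. CTCF had 26394 peaks in WT and 26053 in ΔMAZ, against 2381 in ΔCTCF and 2570 in ΔCTCF/ΔMAZ. MAZ had 6265 peaks in WT and 6759 in ΔCTCF, and 33 in each of the Maz knockout groups. The lists hold no read totals. The lowest background per base that the peaks imply put the RAD21 ΔCTCF library at 2.18 times the depth of WT, the ΔMAZ library at 1.29 times, and WT at 1.07 times ΔCTCF/ΔMAZ. The CTCF ΔCTCF library came out at 0.632 times the depth of CTCF WT, and the MAZ WT library at 2.65 times that of MAZ ΔCTCF.

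Among the members, 8 stood apart. They lay at the predicted genes Gm10717, Gm10718, Gm10722, Gm10800, Gm10801 and Gm21738, where the RAD21 WT background at the summit was 28.5 to 92.6 reads, against at most 14.4 in the other 853 members. All 8 summits fell in repeat-masked sequence, their RAD21 WT fold enrichment was 1.61 to 3.13, and they were called in 5 to 10 of the 12 lists. A MAZ peak was listed at 6 of the 8 in ΔMAZ and at 7 in ΔCTCF/ΔMAZ, although these cells lack Maz. Several of the counts that they move are given with and without them.

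The sequence under the members often held the centre of the CTCF motif. This core was searched on both strands as CCA, any 2 bases, AG, any 2 bases, GGC. The 5 windows below are among the strongest members by RAD21 WT fold enrichment that held the core within 50 bp of the RAD21 summit, had a protein-coding gene as the nearest start, had no masked repeat at the summit and overlapped no annotated UTR or mRNA exon. Each runs 5′ to 3′ on the strand that holds the core, and capitals mark the core.
Gm12166, chr11:46052410-46052510, plus strand: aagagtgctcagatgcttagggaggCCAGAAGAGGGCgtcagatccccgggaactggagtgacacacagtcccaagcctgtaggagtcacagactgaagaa
Npr1, chr3:90466579-90466679, minus strand: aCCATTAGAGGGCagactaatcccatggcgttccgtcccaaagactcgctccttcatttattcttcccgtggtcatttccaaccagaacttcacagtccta
Hapln2, chr3:88027960-88028060, plus strand: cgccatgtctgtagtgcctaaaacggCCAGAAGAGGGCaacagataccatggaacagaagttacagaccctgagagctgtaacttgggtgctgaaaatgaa
Trpm5, chr7:143094881-143094981, plus strand: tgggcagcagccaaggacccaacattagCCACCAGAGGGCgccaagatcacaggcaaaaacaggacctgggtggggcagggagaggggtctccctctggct
Tmem82, chr4:141618662-141618762, plus strand: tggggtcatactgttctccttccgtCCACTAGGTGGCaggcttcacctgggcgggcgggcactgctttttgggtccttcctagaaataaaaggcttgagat
Coordinates are of mm10, and the sequence is that of RefSeq GRCm38.p6. All 5 windows were intergenic, with the RAD21 summit 149 to 763 bp upstream of the start. In each of them the core lay 5′ of the middle of the window, where the RAD21 summit is.

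The core was present within 50 bp of the summit in 254 of 861 members, a share of 29.5% (26.6 to 32.6). Windows of the same length 1 kb to either side held it in 0.639% of cases, and the same window centred on all 77161 distinct transcript starts held it in 0.623%. Lost RAD21 peaks with CTCF away from promoters held it more often, in 41.8% of 9588 peaks (40.9 to 42.8). RAD21 peaks at promoters with CTCF that were retained in ΔCTCF held it in 29.5% of 907 (26.7 to 32.6), the same share as the members, and lost promoter peaks without a CTCF peak held it in 8.40% of 250 (5.56 to 12.5).

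Where exactly 1 core lay within 100 bp, the RAD21 summit was on its 3′ side in 252 of 298 members, or 84.6% (80.0 to 88.2), with a median offset of 21.5 bp. The corresponding shares were 82.9% for the lost distal peaks and 85.1% for the retained promoter peaks. The core showed no preferred direction relative to the gene. It lay on the gene's strand in 91 of 184 members upstream of the start, or 49.5% (42.3 to 56.6), and in 55 of 114 downstream, or 48.2% (39.3 to 57.3).

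A further pair of windows shows members at which a MAZ peak of WT cells was called, no exact match to the core was found within 100 bp, and the string GGGAGGG, which was used for MAZ and searched on both strands, lay within 50 bp of the summit. Capitals mark that string, and both windows are shown on the strand that holds it.
Nxph3, chr11:95514588-95514688, minus strand: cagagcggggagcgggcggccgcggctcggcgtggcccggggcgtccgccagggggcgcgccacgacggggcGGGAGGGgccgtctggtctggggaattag
Bend3, chr10:43479818-43479918, minus strand: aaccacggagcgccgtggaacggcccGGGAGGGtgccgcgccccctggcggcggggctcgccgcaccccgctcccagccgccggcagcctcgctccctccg
Nxph3 encodes a neurexophilin and Bend3 a BEN-domain repressor. Both windows hold a stretch that matches the CTCF core at all but 1 of its 8 fixed bases, so the exact search misses near forms of the motif. The MAZ string lay within 50 bp of the summit in 4.53% of members (3.33 to 6.13), in 5.57% of their windows 1 kb away and in 6.85% of the windows at all transcript starts. The lost distal peaks held it in 2.25% (1.97 to 2.57) and the retained promoter peaks in 5.29% (4.01 to 6.95).

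The members' position relative to the start was set beside that of both other promoter classes. Of the members, 551 had their summit upstream of the nearest start, or 64.0% (60.7 to 67.1), against 70.7% of the retained promoter peaks, a difference of -6.68 points (-11.0 to -2.30), and 54.4% of the lost promoter peaks without CTCF, a difference of 9.60 points (2.71 to 16.5). The summit lay within 100 bp of the start in 23.5% of members and in 32.3% of retained promoter peaks, a difference of -8.84 points (-13 to -4.67). The lost promoter peaks without CTCF gave 26.4%, a difference of -2.94 points (-9.33 to 2.93). The median distance was 400 bp in members and 220 bp in retained peaks. A transcript start lay inside the peak itself in 252 members, or 29.3%, against 44.8% of retained promoter peaks.

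**Figure D1:**
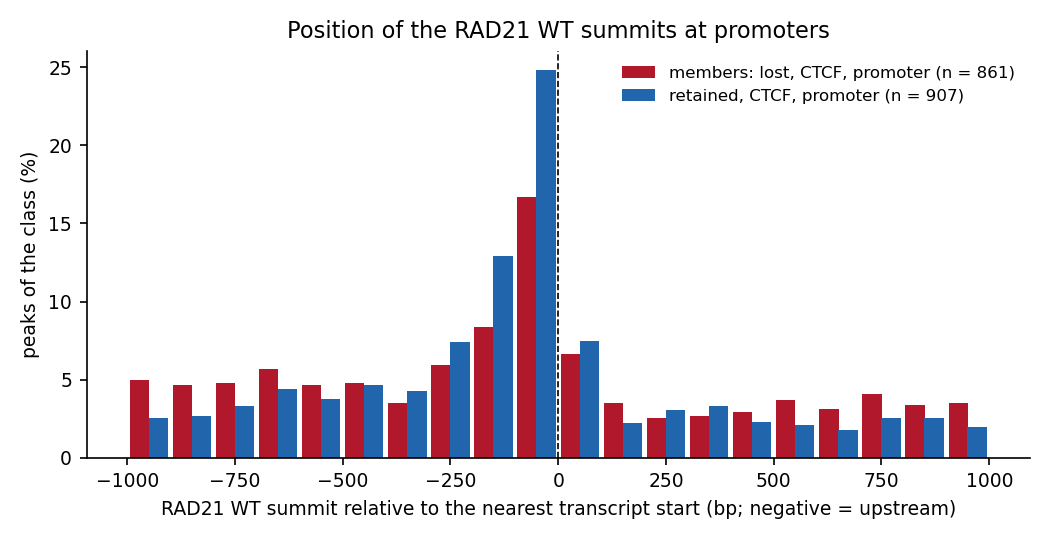
Distance from the RAD21 WT summit to the nearest transcript start in bins of 100 bp (x axis, bp, negative upstream) against the share of each class in the bin (y axis, %), for the 861 members and the 907 retained promoter peaks with CTCF. Both classes peak in the 100 bp just upstream of the start, with 16.7% of members and 24.8% of retained peaks there, and the members spread further across the 1 kb on either side.

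The 3 members just inside the limit of 1 kb lay 994 bp from the start of Galt, 998 bp from Fam19a5 and 999 bp from Coa7, with RAD21 WT fold enrichments of 14.3, 13.9 and 6.63. The 3 lost peaks with CTCF just outside it lay 1002 bp from Mir1668, 1003 bp from Serpinb1a and 1004 bp from Zfp952, with 8.47, 13 and 7.83.

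At the summit, 335 members were intronic, 332 intergenic, 94 in a noncoding exon, 58 in a UTR and 42 in a coding exon. The nearest start belonged to a protein-coding gene in 499 members, or 58.0%, beside 53.8% of all transcript starts. It belonged to a lincRNA in 101, to an antisense gene in 72 and to a processed pseudogene in 57. Protein-coding starts were nearest in 65.7% of the retained promoter peaks, a difference of -7.76 points (-12.2 to -3.23), and in 71.2% of lost promoter peaks without CTCF. Members were also less rich in CpG. With a CpG-rich window defined as 301 bp of at least 55% GC and a CpG observed/expected ratio of at least 0.6, 190 members qualified, or 22.1% (19.4 to 25), against 37.6% of retained promoter peaks (34.5 to 40.8), 1.37% of lost distal peaks and 28.7% of all transcript starts. The CpG-rich members had their summit a median of 111 bp from the start, and the CpG-poor ones 483 bp.

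In WT cells the members were, by median, weaker RAD21 peaks than the WT list as a whole. Fold enrichment here is the deposited ratio of the read pileup at the summit to the local background, each with 1 added. Its median was 8.07 in members, with a range of 1.61 to 37.5. The median was 10.0 over all RAD21 WT peaks, 14.7 in the retained promoter peaks and 8.71 in the lost distal peaks. The median pileup at the summit was 20 reads over a background of 1.41. CTCF WT fold enrichment had a median of 13.6 in members and 24.4 in retained promoter peaks, and the RAD21 and CTCF summits lay a median of 33 bp apart in members. When all RAD21 WT peaks were split by fold enrichment into 5 groups of equal size, the weakest group held 213 members and the strongest 55, whereas 333 of the retained promoter peaks were in the strongest.

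The absence of the members from the ΔCTCF list is part of the rule. The greater depth of the ΔCTCF library stands beside it, and its part in which peaks were called was not tested.

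The highest RAD21 WT values were at Gm40608, Gm24931, Gm46355, Gm26911, Gse1, Tfap2c, Gm12166, Zfp345, Npr1 and Aadat. Gm40608, a lincRNA, had the highest value, a RAD21 fold enrichment of 37.5 in WT and 39.3 in ΔMAZ, with CTCF at 11.8 in WT and 11.0 in ΔMAZ, and it was called in none of the other 8 lists. Tfap2c, which encodes the transcription factor AP-2 gamma, had RAD21 at 30.4 in WT and 14.8 in ΔMAZ and CTCF at 25 and 17.8, with a MAZ WT peak at 3.68. Npr1, a receptor guanylate cyclase for natriuretic peptides, had RAD21 at 27.0 and 26.3 and CTCF at 12.7 and 16.8. Among these 10, Gm12166 alone was called in RAD21 ΔCTCF/ΔMAZ, at 7.32 against 29.1 in WT and 32.0 in ΔMAZ.

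By CTCF WT fold enrichment the highest members were at Comtd1, Myrf, Cacnb3, Mapt and Trabd2b. Comtd1 had CTCF at 63.9 in WT, 53.3 in ΔMAZ and 5.89 in ΔCTCF/ΔMAZ, and was not called in CTCF ΔCTCF. Its RAD21 values were 13 in WT, 28.6 in ΔMAZ and 6.87 in ΔCTCF/ΔMAZ. Mapt, which encodes the microtubule protein tau, had CTCF at 46.7 in WT and 34.2 in ΔMAZ, RAD21 at 7.24 and 8.33, and MAZ at 5.97 in WT and 4.56 in ΔCTCF. A strong CTCF peak therefore went with only a moderate RAD21 peak at Myrf, Cacnb3, Mapt and Trabd2b, where RAD21 WT lay between 6.75 and 8.26.

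Without MAZ but with CTCF present, most members were called again. RAD21 was called in ΔMAZ at 714 members, or 82.9% (80.3 to 85.3), where 83.5% of all RAD21 WT peaks were, so the share was near the background. CTCF was called in ΔMAZ at 791 members, or 91.9% (89.9 to 93.5), against 84.5% of all RAD21 WT peaks, a background that includes peaks without CTCF in WT. The lost distal peaks gave 83.5% and 91.2%. From these the members differed by -0.563 points (-3.32 to 1.92) for RAD21 and 0.652 points (-1.44 to 2.40) for CTCF. The retained promoter peaks gave 98.1% and 98.5%, from which the members differed by -15.2 points (-17.9 to -12.6) and -6.59 points (-8.70 to -4.65). Both were called in ΔMAZ at 675 members, CTCF without RAD21 at 116, RAD21 without CTCF at 39 and neither at 31.

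The share called in RAD21 ΔMAZ was lower among the weaker members. All 206 members in the 2 strongest groups were called, against 123 of 213 in the weakest, or 57.7% (51.0 to 64.2), 81.3% in the next group and 94.8% in the middle one. Within the weakest group the retained promoter peaks were called more often, at 87.3% of 63 (76.9 to 93.4). Fold enrichment changed little where the peak was called in both lists. The median log2 ratio of ΔMAZ to WT was 0.04 for RAD21 over 714 members and -0.08 for CTCF over 791, beside 0.17 and 0.04 in the retained promoter peaks. The log2 ratio for RAD21 was above 1 in 9 members and under -1 in 14.

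**Figure D2:**
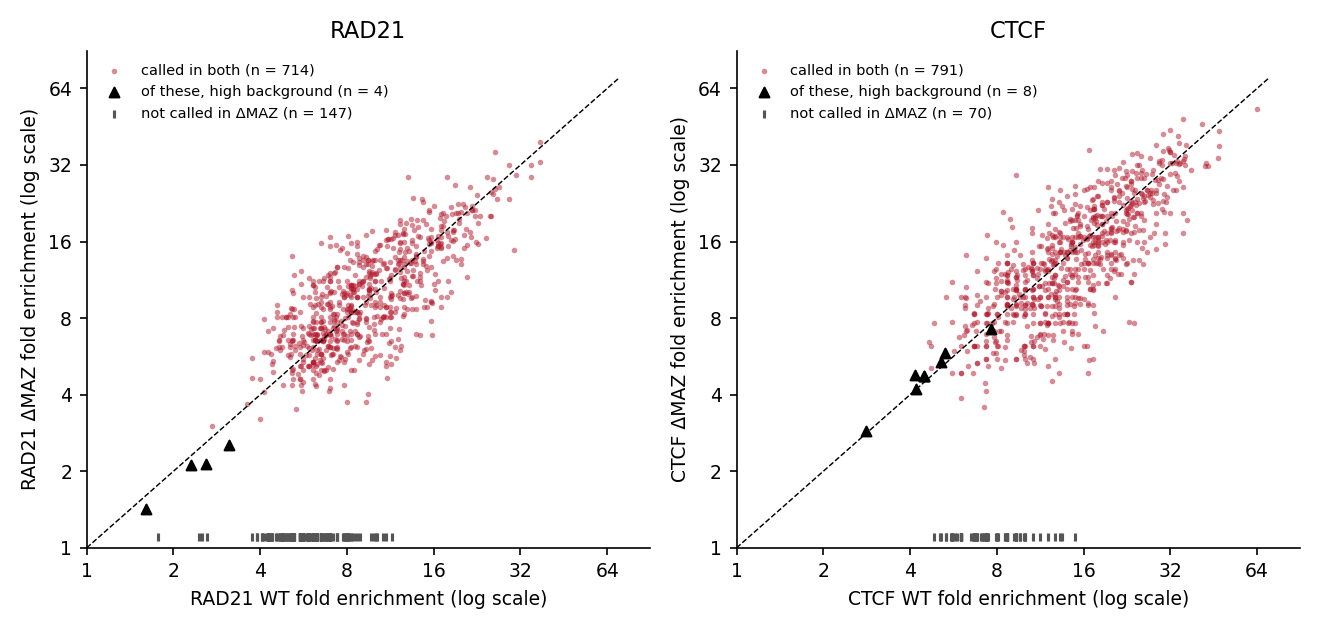
Fold enrichment of each member in WT (x axis, log scale) against ΔMAZ (y axis, log scale) for RAD21 on the left and CTCF on the right, with the dashed line at equal values, triangles for the members of high background and ticks at the bottom for members not called in ΔMAZ. The 714 RAD21 and 791 CTCF points follow the line, and the WT values of the 147 and 70 members not called overlap those of the members called, up to 11.5 for RAD21 and 14.9 for CTCF.

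With CTCF degraded in the Maz knockout, RAD21 was called at 24 members, or 2.79% (1.88 to 4.11). This list was not used by the rule. The background over all RAD21 WT peaks was 21.7%, and the retained promoter peaks reached 57.9% (54.6 to 61.1), a difference of -55.1 points (-58.4 to -51.6). The lost distal peaks gave 1.88%, a difference of 0.910 points (-0.0428 to 2.26), and the lost promoter peaks without CTCF gave 5.60%. Without the 8 peaks of high background, 18 of 853 members were called, or 2.11% (1.34 to 3.31). With a reciprocal overlap of 50%, in the rule and in the result, the share was 5.38% (4.08 to 7.06). Thus the peaks absent from the RAD21 list of ΔCTCF cells were for the most part absent from that of ΔCTCF/ΔMAZ cells too. The latter list held 6400 peaks with a median pileup of 15 reads, against 20371 and 25 in WT. The part of library depth in these calls was not tested.

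**Figure D3:**
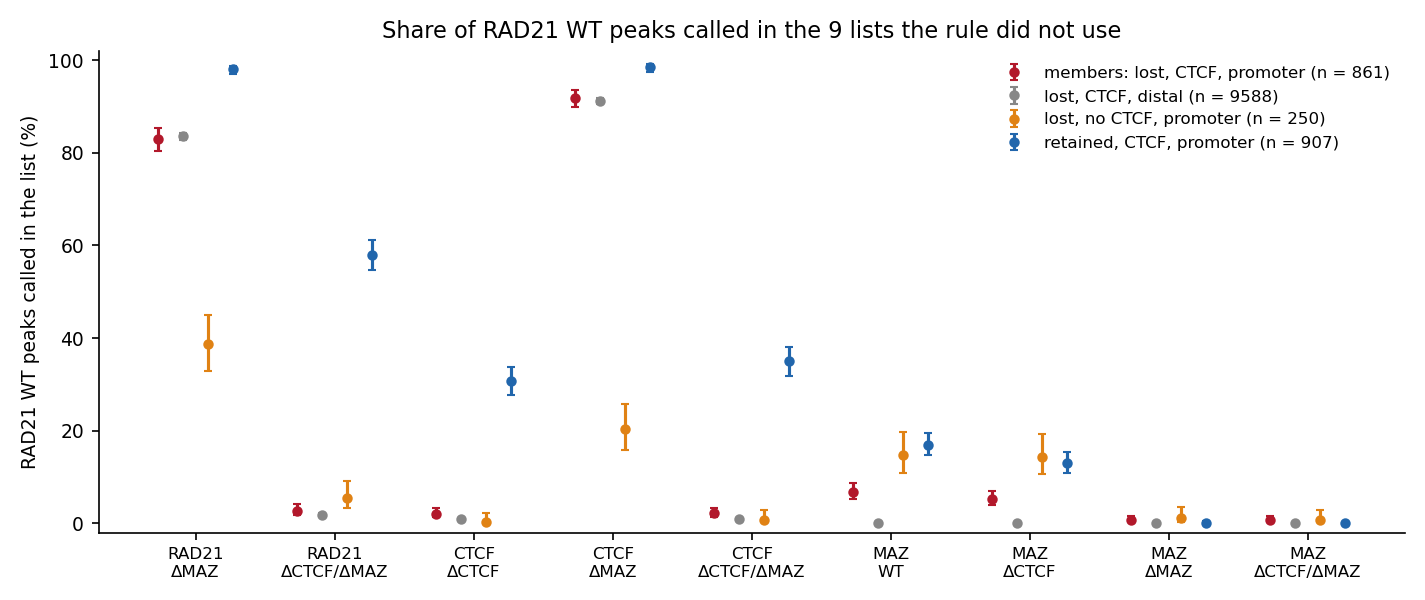
Share of RAD21 WT peaks called in each of the 9 lists that the rule did not use (y axis, %), for the members, lost distal peaks with CTCF, lost promoter peaks without CTCF and retained promoter peaks with CTCF, with 95% Wilson intervals. In RAD21 ΔMAZ the members stand at 82.9%, the lost distal peaks at 83.5%, the lost promoter peaks without CTCF at 38.8% and the retained peaks at 98.1%, and in RAD21 ΔCTCF/ΔMAZ the members stand at 2.79% and the retained peaks at 57.9%.

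The gap between members and retained peaks in this list was present within every strength group. The groups do not fully match the 2 classes in strength. RAD21 WT fold enrichment in the weakest group was 1.61 to 6.09 in members and 3.53 to 6.09 in retained peaks. For the strongest group it was 18.7 to 37.5 and 18.7 to 97.8. In the weakest group 8 of 213 members were called, or 3.76% (1.92 to 7.23), against 31.7% of 63 retained peaks (21.6 to 44.0). Without the peaks of high background, all of which were in this group, 2 of 205 members were called, or 0.976% (0.268 to 3.49). In the strongest group 4 of 55 members were called, or 7.27% (2.86 to 17.3), against 78.1% of 333 (73.3 to 82.2). The 3 groups between them gave 1.05% to 2.65% for the members and 39.7% to 55.9% for the retained peaks.

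**Figure D4:**
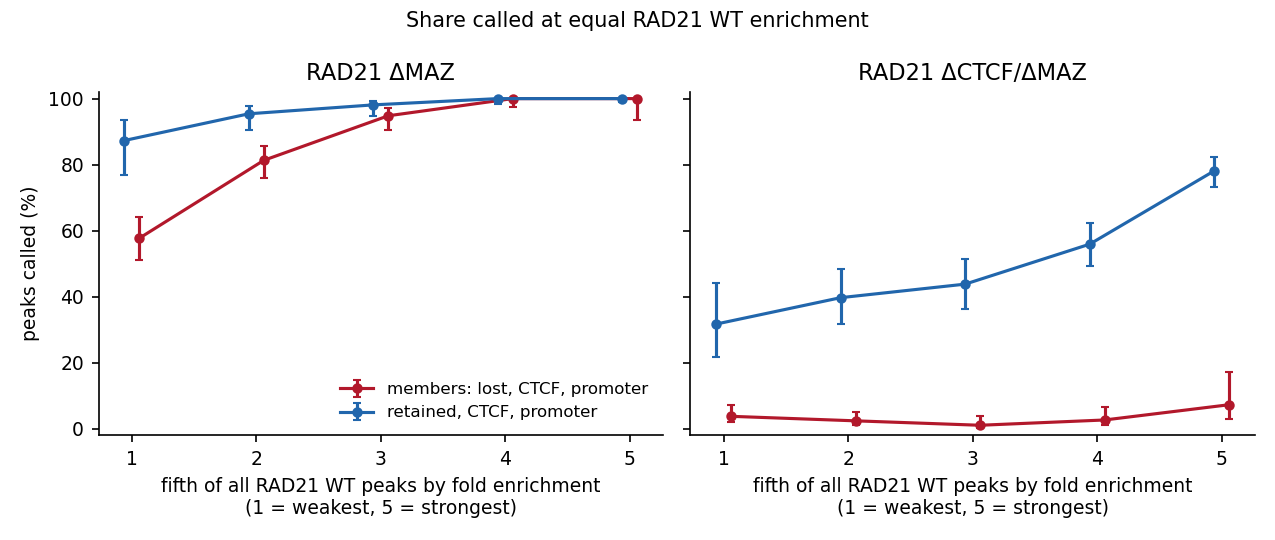
Share of peaks called (y axis, %) in RAD21 ΔMAZ on the left and RAD21 ΔCTCF/ΔMAZ on the right, by group of RAD21 WT fold enrichment over all RAD21 WT peaks (x axis, 1 weakest to 5 strongest), for members and retained promoter peaks with CTCF, with 95% Wilson intervals. In ΔMAZ both classes reach 100% in the 2 strongest groups, whereas in ΔCTCF/ΔMAZ the members stay at or below 7.27% and the retained peaks run from 31.7% to 78.1%.

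The 10 highest of these 24 by RAD21 ΔCTCF/ΔMAZ fold enrichment were at Gm12166, Comtd1, Rnd3, 4931440P22Rik, Gm37169, Gm48957, Thap11, Nsfl1c, Tpm1 and Gm26767, with values of 5.85 to 7.32. Rnd3 had RAD21 at 15.6 in WT, 14.7 in ΔMAZ and 6.87 in ΔCTCF/ΔMAZ, with CTCF at 7.33 in WT and no CTCF peak in the other 3 lists. At Thap11, which encodes the stem cell transcription factor Ronin, RAD21 was 6.21 in WT, 10.6 in ΔMAZ and 6.52 in ΔCTCF/ΔMAZ. CTCF there was 24.6 in WT and 35.7 in ΔMAZ and was still called on auxin, at 5.71 in ΔCTCF and 11.7 in ΔCTCF/ΔMAZ. Tpm1, a tropomyosin of the actin filament, had RAD21 at 21.3, 26.3 and 5.95 in the same 3 groups and MAZ peaks at 5.32 in WT and 5.42 in ΔCTCF.

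Few members had a CTCF peak called after auxin. CTCF was called in CTCF ΔCTCF at 18 members, or 2.09% (1.33 to 3.28), where the background was 10.7%, and in CTCF ΔCTCF/ΔMAZ at 19, or 2.21% (1.42 to 3.42), where it was 11.8%. Retained promoter peaks kept a CTCF peak in 30.7% and 35.0% of cases, differences of -28.6 points (-31.7 to -25.4) and -32.7 points (-36.0 to -29.5). By the background estimate the CTCF ΔCTCF library had 0.632 times the depth of CTCF WT, and the CTCF ΔCTCF/ΔMAZ library 1.15 times. The part of depth in these counts was not tested. All 8 peaks of high background were called in both auxin lists, and without them the counts were 10 of 853 members, or 1.17%, and 11, or 1.29%. Reciprocal overlap gave 3.14% and 3.25%. The lost distal peaks had a CTCF peak in 1.01% and 1.00% of cases, differences of 1.08 points (0.283 to 2.28) and 1.21 points (0.386 to 2.43), and in 0.95% and 0.94% without their own peaks of high background.

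CTCF was called in both auxin lists at 12 members, of which 8 were the peaks of high background and the other 4 were at Slc52a3, Fam133b, Thap11 and Saa3. The last of these fell outside the naming rule and was chosen after its values were seen. Slc52a3, a riboflavin transporter, kept the most CTCF, with fold enrichments of 41.3 in WT, 46.4 in ΔMAZ, 12.6 in ΔCTCF and 13.8 in ΔCTCF/ΔMAZ. Its RAD21 was 6.09 in WT and 5.40 in ΔMAZ and was called in neither auxin list. Fam133b had CTCF at 32.5, 32.6, 5.98 and 7.83 in the same order, and RAD21 at 5.0 in WT and 5.71 in ΔMAZ alone. Of the 25 members with a CTCF peak in either auxin list, 9 were called in RAD21 ΔCTCF/ΔMAZ, or 36.0% (20.2 to 55.5), and without the peaks of high background 3 of 17, or 17.6% (6.19 to 41.0). Of the other 836 members, 15 were, or 1.79% (1.09 to 2.94).

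MAZ was present at a minority of members. A MAZ peak of WT cells overlapped 59 members, or 6.85% (5.35 to 8.74), where 2.59% of all RAD21 WT peaks had one. The lost distal peaks had one in 0.209%, a difference of 6.64 points (5.14 to 8.53), while the retained promoter peaks had one in 17.0%, a difference of -10.1 points (-13.1 to -7.15), and the lost promoter peaks without CTCF in 14.8%. A MAZ peak of ΔCTCF cells overlapped 46 members, or 5.34% (4.03 to 7.05), where the background was 2.19%, and 4.92% without the peaks of high background. Both MAZ shares moved with the definition of a member. They were 4.15% and 3.25% with reciprocal overlap, 11.4% and 11.0% with a gap of up to 500 bp, 3.31% and 2.87% with starts within 2.5 kb, and 10.7% and 8.24% with protein-coding starts. MAZ peaks of ΔMAZ cells overlapped 6 members and those of ΔCTCF/ΔMAZ cells 7, beside a background of 0.0884% in each, and all of these members were peaks of high background.

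Members with MAZ were more often CpG-rich and at protein-coding genes than those without. Of the 73 members with a MAZ peak of WT or ΔCTCF cells, 52 were CpG-rich, or 71.2%, against 17.5% of the other 788, and 68 had a protein-coding nearest start, or 93.2%, against 54.7%. The retained promoter peaks showed the same split, with 78.1% CpG-rich where MAZ was called and 27.3% where it was not, and 84.7% and 60.9% at protein-coding starts. Among the members, the summit lay a median of 153 bp from the start with MAZ and 441 bp without. MAZ was called in both lists at 32, in WT alone at 27 and in ΔCTCF alone at 14, of which 4 were peaks of high background. In RAD21 ΔMAZ the members with MAZ were called in 82.2% of cases and those without in 83.0%. In RAD21 ΔCTCF/ΔMAZ the members with MAZ were called in 8 of 73, or 11.0% (5.66 to 20.2), which became 4 of 69, or 5.80% (2.28 to 14.0), without the peaks of high background, against 2.03% (1.25 to 3.27) of members without MAZ, or 1.79% (1.07 to 2.97) without those peaks. Of the retained promoter peaks, 56.8% were called with MAZ and 58.1% without.

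The highest MAZ WT fold enrichments at members were at Gm11175, Celf5, Mmgt2, Ypel5, Celf1, Spin1, Rev1, Ago1, Smim1 and Patz1, with values of 7.58 to 14.9. Celf5, an RNA-binding splicing regulator, had MAZ at 11.1 in WT and 4.81 in ΔCTCF, RAD21 at 9.58 in WT and 10.9 in ΔMAZ, and CTCF at 28.6 and 38.4. Ago1, an Argonaute protein of RNA silencing, had MAZ at 8.01 and 6.27, RAD21 at 10.2 in WT and 15.0 in ΔMAZ, and CTCF at 32.0 in WT, 7.24 in ΔCTCF and 44.0 in ΔMAZ. At Spin1, a reader of histone methylation, MAZ was 8.39 in WT and not called in ΔCTCF, while RAD21 was 7.83 in WT and 5.40 in ΔMAZ. Both MAZ lists held a peak at Gm11175, Celf5, Ypel5, Celf1, Ago1, Smim1 and Patz1.

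RAD21 peaks of ΔCTCF cells lay close to some members, although the rule excludes overlap. Such a peak lay within 5 kb of 185 members, or 21.5% (18.9 to 24.4), where 15.0% of all lost RAD21 peaks had one. The lost distal peaks had one in 14.5%, a difference of 6.98 points (4.27 to 9.93), and the lost promoter peaks without CTCF in 28.8%. Within 1 kb there were 82 members, or 9.52% (7.74 to 11.7), against a background of 3.94% of lost peaks and 2.98% of the lost distal peaks, a difference of 6.54 points (4.72 to 8.71).

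Since the members lie within 1 kb of a start by the rule, peaks this close to them lie near a start largely by selection, and the following is a description. Of the 82 members with a RAD21 ΔCTCF peak within 1 kb, 70 had its summit within 1 kb of a start, 54 had a peak that overlapped no RAD21 WT peak, or 65.9%, and 28 had one that overlapped a MAZ peak of ΔCTCF cells, or 34.1%. Over all RAD21 ΔCTCF peaks, 55.9% overlapped no RAD21 WT peak and 11.9% overlapped a MAZ peak of ΔCTCF cells. The same shares were 70.7% and 39.0% for the lost promoter peaks without CTCF, and 45.5% and 9.44% for the lost distal peaks. The summit of the close peak lay a median of 172 bp from a start, while the summits of the members themselves lay a median of 602 bp from one. The close peak was nearer to a start than the member in 48 of the 82.

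**Figure D5:**
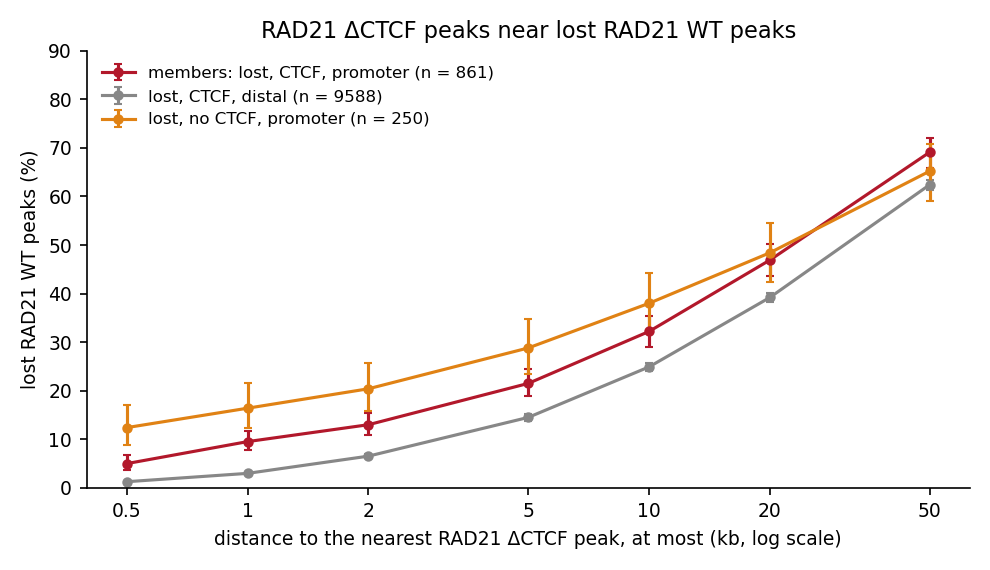
Share of lost RAD21 WT peaks with a RAD21 ΔCTCF peak within the distance given (x axis, kb, log scale, peak edge to peak edge; y axis, %), for members, lost distal peaks with CTCF and lost promoter peaks without CTCF, with 95% Wilson intervals. Members lie between the other classes at short distance, at 9.52% within 1 kb, and at 50 kb the members reach 69.1%, the lost distal peaks 62.4% and the lost promoter peaks without CTCF 65.2%.

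Sgk1, a kinase induced by serum and glucocorticoids, shows this arrangement most fully and was the only gene nearest to 3 members. Their summits lay 810 bp and 657 bp upstream and 732 bp downstream of a start, with RAD21 WT fold enrichments of 8.70, 8.84 and 6.96, and CTCF WT at 7.36, 5.60 and 5.99. In ΔMAZ the RAD21 values were 7.58 and 7.98 for the upstream peaks, and the downstream peak was not called. In ΔCTCF cells the nearest RAD21 peaks lay 569, 455 and 373 bp away, at 4.19, 4.19 and 6.09, with their summits 17 bp, 17 bp and 113 bp from a start. Neither of these peaks overlapped a RAD21 peak of WT cells.

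Among members whose nearest RAD21 ΔCTCF peak lay within 5 kb, 10 were named for the highest fold enrichment of that nearest peak. They were at Fcor, Gm34552, Pdlim7, Gm25214, Ttc12, Tekt5, Gm37169, Fam136a, Gm11731 and Gm32850. Their nearest peaks had fold enrichments of 12.1 to 23.6 at distances of 307 to 3653 bp. All 10 nearest peaks overlapped a RAD21 peak already present in WT. Other RAD21 ΔCTCF peaks within 5 kb were not ranked. At Fcor the member had RAD21 at 24.3 in WT and 16.5 in ΔMAZ, and the retained neighbour, 67 bp from the start of Trappc5, overlapped a MAZ peak of ΔCTCF cells.

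By gene, 934 genes had a start within 1 kb of a member and 846 were the nearest gene of at least 1 member. The other named genes nearest to 2 members were B230207O21Rik, Dmtn, Fam19a5, Gm10717, Gm21738, Gm34643, Gm7932, Rtn4, Socs1 and Sorcs2. Socs1, which restrains cytokine signalling, had a downstream member at 412 bp with RAD21 at 12.5 in WT and 17.3 in ΔMAZ, and an upstream one at 976 bp with 6.54 and 9.95. The members at Sorcs2, a sorting receptor, lay 46 and 982 bp upstream, with RAD21 WT at 20.3 and 7.83. Only 4 members shared their CTCF WT peak with another member, 2 at Gm7932 and 2 at Gm21738.

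Genes of cohesin and insulator factors had a member in 3 of 29 cases, or 10.3%, beside 2.44% of all 21923 protein-coding genes, and the retained promoter peaks also took in 3 of the 29. The 3 were Stag2, Patz1 and Zfp341. Stag2, a subunit of cohesin, had RAD21 at 6.96 in WT and 16.6 in ΔMAZ and CTCF at 23.3 and 27.7, with no peak in any other list. Patz1, which encodes a zinc finger protein related to MAZ, had RAD21 at 6.87 and 6.24, CTCF at 19.1 and 16.2, and MAZ at 7.58 in WT and 13.2 in ΔCTCF. A RAD21 ΔCTCF peak of fold enrichment 3.77, absent from WT and overlapping MAZ, lay 1914 bp from the Patz1 member. Zfp341 had RAD21 at 6.65 and 11.5, CTCF at 30.5 and 20.9, and MAZ at 7.55 in WT alone.

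The other gene lists gave small counts, to be read beside the 2.44% of all protein-coding genes with a member and the 3.02% with a retained promoter peak. Of 39 Hox genes, which set position along the body axis, 1 had a member, or 2.56%, against 4 with a retained promoter peak. The member was at Hoxc5, with RAD21 at 10.1 in WT and 11.9 in ΔMAZ, CTCF called in the same 2 groups, and a RAD21 ΔCTCF peak of 5.10 lying 856 bp away. Of 158 developmental transcription factors 2 had a member, Foxs1 and Sox15, or 1.27%, against 5 with a retained promoter peak. Of 30 pluripotency genes 1 had a member and 1 a retained promoter peak, or 3.33% each, and the member was at Mycn, with RAD21 at 11.4 and 8.08 and CTCF at 8.71 and 9.05. Of 45 imprinted genes 2 had a member, or 4.44%, and 0 a retained promoter peak. At Gnas, which encodes the stimulatory G protein alpha subunit, RAD21 was 5.16 and CTCF 7.96 in WT and neither was called in any other list. At Zim1 RAD21 was 4.79 in WT and 4.35 in ΔMAZ and CTCF 7.47 and 5.17.

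Among housekeeping groups, 4 of 83 cytosolic ribosomal protein genes had a member, or 4.82%, against 1.20% with a retained promoter peak. Of 93 respiratory chain genes only Ndufab1 had a member, or 1.08%, against 7 with a retained peak. None of 50 proteasome genes had a member, and 1 had a retained promoter peak. Of 67 replication-dependent histone genes 2 had a member, or 2.99%, and 0 a retained promoter peak. The members were at Hist1h4j and Hist1h4c, and at the latter a RAD21 ΔCTCF peak of 4.64, absent from WT and overlapping MAZ, lay 701 bp from the member and 89 bp from a start.

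Of 394 C2H2 zinc finger genes with Zfp symbols 8 had a member, or 2.03%, and 8 had a retained promoter peak. The strongest was Zfp345, with RAD21 at 29.1 in WT and 23.6 in ΔMAZ and CTCF at 14.9 and 12.5, followed by Zfp868, Zfp385a, Zfp52 and Zfp54. Of 1418 olfactory and vomeronasal receptor genes 2 had a member, Olfr1368 and Olfr557, or 0.141%, and 0 had a retained promoter peak. All of these shares are counts over gene lists, without a test.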

How the data were processed

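Peak lists of 12 of the 20 samples in the labels were used, and 8 samples were not analysed here. According to the study's methods, the authors aligned reads to mm10 with Bowtie2, filtered reads by quality and removed PCR duplicates with SAMtools, and called peaks with MACS. Drosophila chromatin was added as a spike-in. For heat maps and tracks the authors scaled by spike-in reads, or by total reads in the case of RAD21. Whether an input library served as control is not given in the sources used here. Each deposited list gave a fold enrichment (a ratio of pileup to background), −log10 p-values and −log10 q-values, a display score and a summit offset. Whether spike-in scaling entered the peak calls is not given either.

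From these, overlaps of at least 1 bp were computed, the overlapping peak of highest fold enrichment was taken, and summits were assigned to transcript starts of GENCODE vM21 basic. The whole-number pileup and the background at a summit were solved from the fold enrichment and −log10 p, and all peaks were matched within 0.001. Sequence came from the RefSeq GRCm38.p6 chromosomes. CpG-rich and masked states were read from 301 bp windows and from the lower case of that file. Overlap and pileup functions were checked on simulated data against bedtools 2.31.1. Python 3.11.15, pandas 2.3.3 and scipy 1.17.1 were used.

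The members, the gene lists and the comparisons were chosen with earlier results of these data known. Named genes are those of the nearest start. They were the highest members by RAD21 WT (10), CTCF WT (5), MAZ WT (10) and RAD21 ΔCTCF/ΔMAZ (10) fold enrichment. Added to these were the 10 highest with CTCF in both auxin lists. A further 10 were those whose nearest RAD21 ΔCTCF peak was strongest, where it lay within 5 kb. The 3 on each side of 1 kb, genes with 2 or more members, and up to 5 genes of each list were also named. Genes of chromosome 18 were counted but are not named, and some other results are not reported here. Alternatives changed the overlap, the q-value limit, the promoter distance, the transcript starts, the search distance and the core window.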

Additional observations from a re-analysis of the deposited data

How the results depend on the processing

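Of 73 alternative values, 46 stayed within the interval of the reported value (or within 1.5 times the reported count of members) and 27 did not. The number of members was 892 with a reciprocal overlap of 50%, 821 with a gap of up to 500 bp and 887 with −log10 q of at least 5, but 495 with starts within 500 bp, 1813 within 2.5 kb and 522 with protein-coding starts. Reciprocal overlap gave 5.38% called in RAD21 ΔCTCF/ΔMAZ, 88.1% in CTCF ΔMAZ, 4.15% with MAZ of WT, 3.25% with MAZ of ΔCTCF and 27.6% with a RAD21 ΔCTCF peak within 5 kb. A gap of 500 bp gave 11.4% and 11.0% for the MAZ lists and 17.4% for the nearby peak, which by construction then lies more than 500 bp away. The q-value limit gave 15.4% for the nearby peak. Starts within 500 bp gave 10.1% with MAZ of WT, 7.88% with MAZ of ΔCTCF, 18.4% for the nearby peak and 24.2% with the CTCF core. Starts within 2.5 kb gave 3.31%, 2.87% and 34.1% for the MAZ lists and the core, and protein-coding starts 10.7%, 8.24% and 22.8%. The nearby share was 13% at 2 kb and 32.2% at 10 kb, and the core share 35.1% at 100 bp. Leaving out the 8 peaks of high background, an alternative chosen after seeing the data, gave 1.17% in CTCF ΔCTCF and 1.29% in CTCF ΔCTCF/ΔMAZ. The cause of the other shifts was not tested. No paired analysis was possible with only 1 list per antibody and condition. The second samples of the CTCF and MAZ groups were not analysed here. The lists hold no peaks below the caller's threshold, so an uncalled member may still carry signal, and differences of depth between libraries limit every comparison of called shares.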
